A study of Homo sapiens with 2 samples.

Results

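Metallothioneins are small, cysteine-rich proteins that bind zinc and copper. They were examined here together with the zinc sensor that controls their genes and a zinc exporter under the same control. The genes were chosen by symbol: the metallothioneins MT2A, MT1E, MT1F, MT1G, MT1M and MT1X, the transcription factor MTF1 and the zinc exporter SLC30A1. Of these 8 genes, 4 had values (MT2A, MT1X, MTF1 and SLC30A1), among 16424 genes listed. MT1E, MT1F, MT1G and MT1M had no value here and were not analysed here.

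The study asked where M2BPGi, a glycosylated form of Mac-2 binding protein, arises in the liver and how it affects hepatocellular carcinoma. Transcripts of exposed hepatoma cells were measured as a step toward the mechanism, beside other experiments. PLC/PRF/5 cells, a human hepatoma line, were kept for 6 h in medium without M2BPGi (0 µg/ml, non-treated) or with 3 µg/ml (M2BPGi-treated). Total RNA was measured by Cap Analysis of Gene Expression (CAGE), which counts tags from the capped 5′ ends of transcripts, with 1 library per condition. The library totals were 24040209 tags in non-treated and 24862941 tags in M2BPGi-treated cells.

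Free zinc in the cell is sensed by MTF1, which binds metal response elements in the promoters of metallothionein genes and of SLC30A1. The metallothioneins hold the metal in the cytosol, and SLC30A1 carries zinc out across the plasma membrane. In liver cells metallothionein genes also respond to glucocorticoids, to inflammation and to oxidative stress.

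Each value is given as CPM, tag counts scaled to the total of the library. A CAGE tag marks 1 transcript end, so CPM was compared between genes without division by length. The log2 ratio is that of M2BPGi-treated over non-treated cells after adding 1 CPM to both, which understates the difference of low genes. The 95% exact interval of the tag ratio was computed from the tag numbers and covers counting error only. With 1 library per condition no difference has a replicate check, so the conditions were not tested against each other. In RNA from a whole dish, fewer cells of a type and less RNA per cell cannot be told apart.

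The hepatoma label was checked against marker genes. All 12 hepatocyte or hepatoma markers were listed, with a summed level of 4542 CPM without and 4172 CPM with M2BPGi. KRT18 was the most abundant, at 1250 and 1592 CPM. Alpha-fetoprotein (AFP) was at 695 and 566 CPM, whereas albumin (ALB) was at 8.82 and 7.04 CPM. Of the markers, 9 were lower and 3 higher after treatment, and the median log2 ratio was -0.29. Past 1.5-fold lower were 2 of the 12, fibrinogen beta (FGB), at 950 and 623 CPM (-0.61), and transferrin (TF), at 6.61 and 4.02 CPM (-0.60). Of all 13724 genes whose mean CPM reached 1, 555 (4.04%) were at least 1.5-fold lower. SERPINA1 was at 671 and 455 CPM (-0.56). KRT18, at 0.35, was the highest in ratio, so the summed level hides the lower values of these secreted proteins' genes. The leukocyte marker PTPRC was at 0 in both libraries, although the leukocyte list as a whole summed to 53.2 and 49.7 CPM, led by LYZ at 32.1 and 29.2 CPM. In the fibroblast list 1 of 4 genes was listed, COL1A1, at 0.67 and 0.76 CPM. The biliary list summed to 169 and 161 CPM, led by KRT19 at 164 and 156 CPM. The 3 endothelial markers had no value here. The part of these markers in the results on metal genes was not tested.

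In M2BPGi-treated cells both metallothioneins with values were at a higher level, MTF1 was at nearly the same level, and SLC30A1 was at a lower level. Neither difference of a metallothionein reached 1.5-fold on the log2(CPM + 1) scale with the settings chosen first. Most other zinc transporters were lower in M2BPGi-treated cells, as were most genes.

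MTF1 (ENSG00000188786), the zinc sensor, lies on chr1:37809567-37859620 (GRCh38, minus strand). Its level was 11.31 CPM (272 tags) in non-treated and 10.86 CPM (270 tags) in M2BPGi-treated cells. The log2 ratio was -0.05, with an interval of the tag ratio from -0.31 to 0.19. A difference in MTF1 was not detectable at this depth, and its ratio lay at percentile 49.7 of the 13724 genes tested, those whose mean CPM reached 1. An opposite-strand pseudogene annotated over it was at 0 in both libraries.

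MT2A (ENSG00000125148) is a major metallothionein of many human tissues and lies on chr16:56608199-56609497 (GRCh38, plus strand). The 250 bases upstream of its RefSeq start site are printed because metal response elements are a known feature of this promoter, with those of MT1X and SLC30A1 for comparison. They come from RefSeq (GRCh38.p14), at chr16:56608334-56608583 (plus strand) for MT2A, chr16:56682220-56682469 (plus strand) for MT1X and chr1:211579162-211579411 (minus strand) for SLC30A1. Each is written 5′ to 3′ on the strand of its gene, and capitals mark the metal response element core, TGCACNC or TGCGCNC, on either strand.
MT2A: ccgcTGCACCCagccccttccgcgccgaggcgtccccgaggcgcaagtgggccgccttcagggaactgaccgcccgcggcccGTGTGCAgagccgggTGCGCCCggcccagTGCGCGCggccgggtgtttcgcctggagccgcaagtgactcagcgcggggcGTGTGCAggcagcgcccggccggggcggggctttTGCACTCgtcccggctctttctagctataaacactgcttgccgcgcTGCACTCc
MT1X: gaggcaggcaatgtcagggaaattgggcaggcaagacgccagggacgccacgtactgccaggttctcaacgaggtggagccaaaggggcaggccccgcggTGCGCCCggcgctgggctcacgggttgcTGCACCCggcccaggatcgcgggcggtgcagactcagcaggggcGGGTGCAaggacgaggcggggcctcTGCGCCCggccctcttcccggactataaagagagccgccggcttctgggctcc
SLC30A1: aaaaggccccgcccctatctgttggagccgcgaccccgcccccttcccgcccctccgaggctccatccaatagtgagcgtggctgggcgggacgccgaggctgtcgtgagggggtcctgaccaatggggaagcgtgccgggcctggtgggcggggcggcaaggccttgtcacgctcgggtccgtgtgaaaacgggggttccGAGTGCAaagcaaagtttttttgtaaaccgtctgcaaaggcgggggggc
The MT2A window held 7 cores, 5 on the strand of the gene and 2 on the other. Among 27305 promoters searched in the same way, 9 held as many (0.0330%). MT1X held 4 cores, a number that 100 promoters reached (0.366%). SLC30A1 held 1 core and MTF1 held 0, and 24.7% of all promoters held at least 1. The glucocorticoid half-site TGTTCT, searched on both strands, was in none of these 4 windows and in 12.4% of all promoters. Only this exact sequence within 250 bases was searched. An element with other letters or farther upstream would be missed, so its absence from these genes cannot be read from this search. A match describes the letters only, and start sites differ between annotations. The GENCODE start of MT2A lies 385 bases upstream of the RefSeq start, that of MT1X 46 bases upstream, and that of SLC30A1 419 bases downstream.

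**Figure D1:**
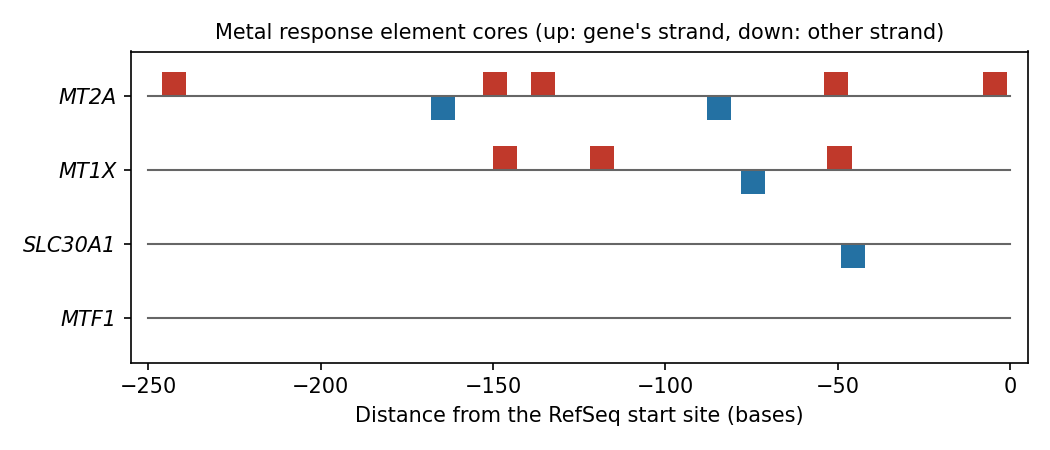
Metal response element cores in the 250 bases upstream of the RefSeq start site, by distance from that site in bases. Boxes above each line are cores on the strand of the gene and boxes under it are cores on the other strand. MT2A has 7, MT1X 4, SLC30A1 1 and MTF1 0.

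MT2A was at 8.03 CPM (193 tags) in non-treated and 12.31 CPM (306 tags) in M2BPGi-treated cells. The M2BPGi-treated library was the higher, by 4.28 CPM, with counting intervals of the levels of 6.94 to 9.24 CPM and 10.97 to 13.8 CPM. The log2 ratio of MT2A was 0.56 (1.47-fold), with an interval of the tag ratio from 0.35 to 0.88, and 22.8% of all genes tested had an interval above 0. Its ratio lay at percentile 98.2 of all 13724 genes tested. Among 4216 genes with a mean CPM within 2-fold of its own, 78 had a ratio as high (1.85%). MT2A was past 1.5-fold with a pseudocount of 0.1 CPM (1.53-fold) and after rescaling of the libraries (1.502-fold), and under it with a pseudocount of 5 CPM (1.33-fold).

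MT1X (ENSG00000187193), a second metallothionein of the same cluster, lies on chr16:56682424-56684196 (GRCh38, plus strand). It was at 13.56 CPM (326 tags) in non-treated and 17.25 CPM (429 tags) in M2BPGi-treated cells. The M2BPGi-treated library was again the higher, with counting intervals of 12.1 to 15.1 CPM and 15.7 to 19.0 CPM. The log2 ratio was 0.33 (1.25-fold), with an interval of the tag ratio from 0.14 to 0.56 that overlapped the interval of MT2A. Here too the share of all genes tested with an interval above 0 was 22.8%. The ratio lay at percentile 91.3, and 7.04% of 4814 genes of similar level had one as high.

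Both values are uncertain where tags fit several genes. A transcript annotated on the same strand over MT1X (RP11-343H19.2 in the deposited values) had the same 13.56 and 17.25 CPM, so the same tags may be listed under both names. In all, 668 genes whose mean CPM reached 10 shared both values with another gene. The pseudogene MT2P1 matched an MT2A transcript at 98.1% identity over 155 nt, and MT1G, which had no value here, at 95.8% over 120 nt. MT1XP1 matched MT1X at 96.2% over 186 nt.

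The first 100 nt of a transcript were also compared by stretches of 25 bases. In MT2A, MTF1 and SLC30A1, 0 of 76 stretches were found in transcripts of another gene. The starts of MT2A and SLC30A1 differ between GENCODE and RefSeq by 385 and 419 bases, so for both genes the search does not cover the first bases of transcripts that begin at the RefSeq start. In MT1X all 76 were found in another gene when its longest coding transcript was used. This value depends on the choice of transcript and on the overlapping gene: 7 remained with that gene left out, 30 with the first-numbered transcript, and 0 with both changes. The changes were chosen after the first value was seen. In MT2P1 43 of 76 stretches were found in other genes, MT2A among them.

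MT2P1 was the only other listed gene of the 23 in the metallothionein family list. It was at 2.33 CPM (56 tags) in non-treated and 1.85 CPM (46 tags) in M2BPGi-treated cells, with a log2 ratio of -0.22 and an interval from -0.93 to 0.26. Summing MT2A, MT1X and MT2P1 cancels an exchange of tags among these genes only. An exchange with copies that had no value here, such as MT1G and MT1XP1, is not cancelled. Neither is a listing of the same tags under a second name. The sum of MT2A, MT1X and MT2P1 was 23.92 CPM without and 31.41 CPM with M2BPGi, a log2 ratio of 0.39 without pseudocount (0.24 to 0.55). MT2A and MT1X alone summed to 21.59 and 29.56 CPM, a log2 ratio of 0.45 (0.29 to 0.62).

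SLC30A1 (ENSG00000170385), the zinc exporter of the plasma membrane, lies on chr1:211571568-211578742 (GRCh38, minus strand). It was at 4.45 CPM (107 tags) in non-treated and 3.18 CPM (79 tags) in M2BPGi-treated cells. The M2BPGi-treated library was the lower, although the counting intervals of the levels, 3.65 to 5.38 CPM and 2.52 to 3.96 CPM, overlapped. The log2 ratio was -0.38, with an interval of the tag ratio from -0.92 to -0.05, and lay at percentile 13.3. Its direction was therefore opposite to that of both metallothioneins.

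**Figure D2:**
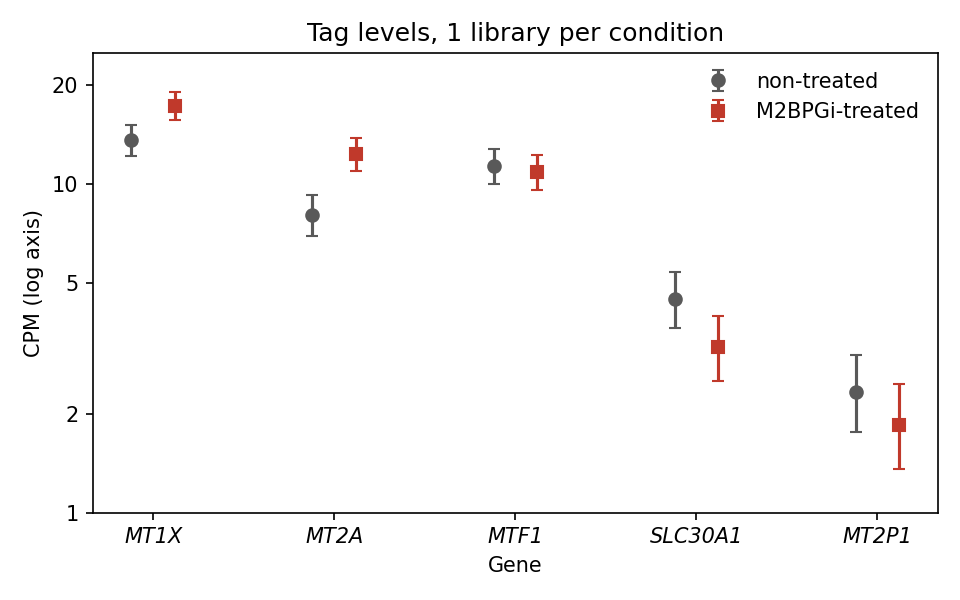
CPM on a log axis of the 4 genes and the pseudogene MT2P1, with 1 library per condition. Circles are non-treated and squares M2BPGi-treated cells, and bars are 95% exact Poisson intervals for counting error only. Of all genes tested, 22.8% had an interval of the tag ratio above 0 and 31.5% had one below 0.

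In non-treated cells the order of levels was MT1X, MTF1, MT2A and SLC30A1. The intervals of MT1X and MTF1 (10.0 to 12.7 CPM) overlapped, and the other neighbours in this order did not. In M2BPGi-treated cells the order was MT1X, MT2A, MTF1 and SLC30A1. Here MT2A and MTF1 (9.60 to 12.2 CPM) overlapped, and the other neighbours did not. None of the 4 was an abundant transcript: MT1X was at percentile 47.8 of listed genes in non-treated and 54.4 in M2BPGi-treated cells.

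The ratios were then set against all 13724 genes tested, whose median log2 ratio was -0.05 and of which 57.0% were lower in M2BPGi-treated cells. At 2-fold or more, 0 of the 4 were higher, against 33 of all genes (0.240%), and 0 of the 4 lower, against 59 (0.430%). At 1.5-fold, 0 of 4 were higher, against 219 genes (1.60%), and 0 of 4 lower, against 555 (4.04%). The interval of the tag ratio lay above 0 in 2 of 4, MT2A and MT1X, and in 22.8% of all genes. It lay below 0 in 1 of 4, SLC30A1, and in 31.5% of all genes. An interval that leaves out 0 was thus common in these libraries and does not set a gene apart.

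**Figure D3:**
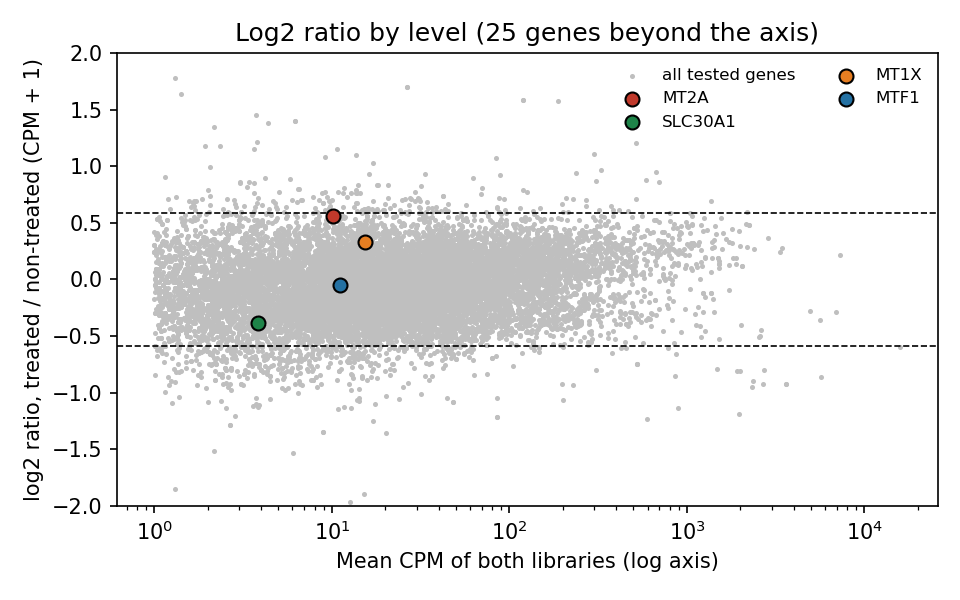
Log2 ratio (M2BPGi-treated over non-treated, CPM + 1) by mean CPM of both libraries on a log axis. Grey points are the 13724 genes tested, 25 of them beyond the axis, and dashed lines mark 1.5-fold. MT2A lies just under the upper line at 0.56, MT1X at 0.33, MTF1 at -0.05 and SLC30A1 at -0.38.

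Metallothionein transcripts are short, and log2 ratios differed with transcript length. Coding genes were divided by length into 10 groups of similar size. In the group of the shortest (177 to 1424 nt) the median was 0.13, and in that of the longest it was -0.14. MT2A (786 nt) and MT1X (538 nt) both belong to the shortest group. Within it MT2A lay at percentile 95.9 and MT1X at percentile 81.9, both inside the central 95% of the group, -0.51 to 0.62. SLC30A1 (5474 nt) lay at percentile 13.2 of its own group. The part of length in these ratios was not tested.

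**Figure D4:**
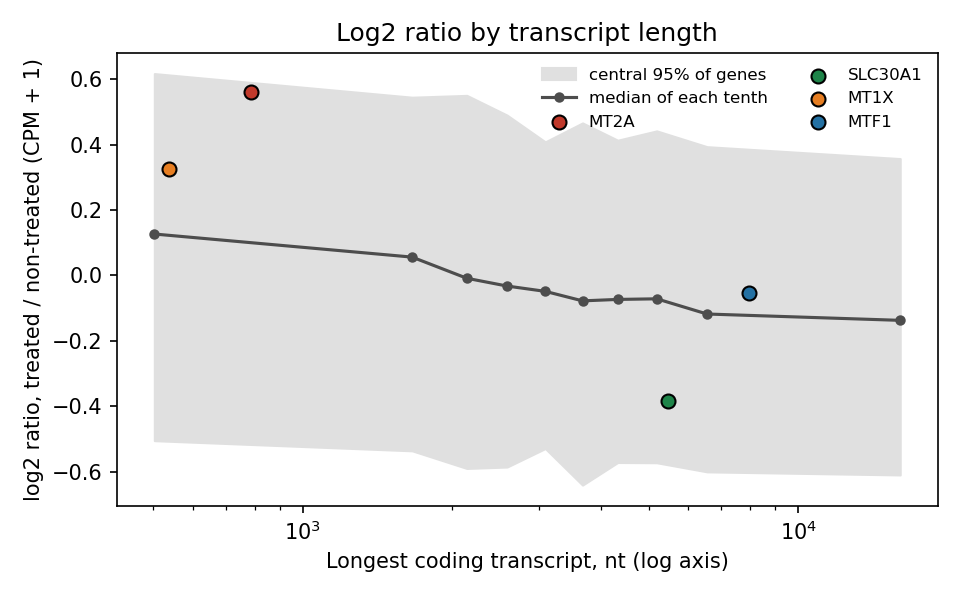
Log2 ratio by length of the longest coding transcript in nt on a log axis, for 11226 genes in 10 groups of similar number. The line joins the median of each group and the grey area spans its central 95%. The median goes from 0.13 in the shortest to -0.14 in the longest group, and all 4 genes lie inside the grey area.

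Genes of zinc transport were mostly lower in M2BPGi-treated cells, in counts that include SLC30A1 itself. Of the SLC30 family, which moves zinc out of the cytosol, 8 of 11 genes were tested, of which 6 were lower and 2 higher, with a median log2 ratio of -0.24. SLC30A7, a transporter of the secretory pathway, was the lowest, at 18.5 and 13.5 CPM (-0.43). SLC30A5 was at -0.36 and SLC30A6 at -0.31. SLC30A4 was at -0.17 and SLC30A9 at 0.08. The lower ratio of SLC30A1 was thus shared by other exporters with more tags.

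Of the SLC39 family, which moves zinc into the cytosol, 12 of 14 genes were tested, of which 11 were lower and 1 higher, with a median of -0.21. SLC39A7, which releases zinc from the endoplasmic reticulum, was at 177 and 117 CPM (-0.60). SLC39A13 was at -0.58 and SLC39A10 at -0.41. At the other end SLC39A11 was at -0.04, SLC39A3 at -0.06 and SLC39A6 at -0.16. The single higher importer was SLC39A4, at 2.37 and 3.66 CPM (0.47), and SLC39A5, at 6.28 and 3.78 CPM (-0.61), was the other one past 1.5-fold beside SLC39A7. These 2 low genes were chosen after their values were seen. Of all genes tested, 4.04% were at least 1.5-fold lower. Together, with SLC30A1 among them, 17 of 20 zinc transporters were lower (85.0%), against 57.0% of all genes tested. All genes tested include short ones, whose ratios were higher, whereas the median length of the 20 was 4196 nt. Their median log2 ratio was -0.21, and the medians of their length groups had a median of -0.07. The part of length in this share was not tested.

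The list of other known MTF1 targets held 6 symbols, of which 3 were listed and tested. Selenoprotein H (C11orf31) was at 0.20 and the glutathione synthesis gene GCLC at 0.06. The importer SLC39A10, also counted in the SLC39 family, was at -0.41. It is known as a gene that MTF1 represses, so the median of the list, 0.06, joins targets of opposite kinds and gives no direction for them.

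Of 14 copper handling genes, 8 were higher and 6 lower, with a median of 0.12. COMMD1 was the highest, at 28.9 and 44.1 CPM (0.59). The copper chaperones ATOX1 and COX17 were at 0.36 and 0.32. Ceruloplasmin (CP) was the lowest, at 22.8 and 14.0 CPM (-0.67). The copper pumps ATP7A and ATP7B were both at -0.50. The list thus had members on both sides of 0.

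The glucocorticoid response list had 5 of 11 genes higher and 6 lower, with a median of -0.10. CEBPD was at 0.13, FKBP5 at 0.08 and ZFP36 at 0.03. NFKBIA was at -0.42, DUSP1 at -0.15 and ERRFI1 at -0.11. None of the 11 reached 1.5-fold, a ratio reached by few of all genes tested (1.60% higher and 4.04% lower).

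In the metal and oxidative stress list 6 of 11 genes were higher and 5 lower, with a median of 0.03. The quinone reductase NQO1 was at 238 and 350 CPM (0.55), close to the ratio of MT2A. GCLM was at 0.31 and SRXN1 at 0.23. The heat shock genes HSPA1B, HSPA1A and HSPH1 were at -0.40, -0.37 and -0.17. HSPA1A and HSPA1B are near-identical copies, so the division of tags between them is uncertain.

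Of the genes beside the metallothionein cluster, 6 of 8 were tested, with 3 higher, 3 lower and a median of 0.01. NUDT21 was at 0.35, OGFOD1 at 0.11 and NUP93 at 0.07. HERPUD1 was at -0.07 and BBS2 at -0.05. The neighbours thus had no common direction.

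**Figure D5:**
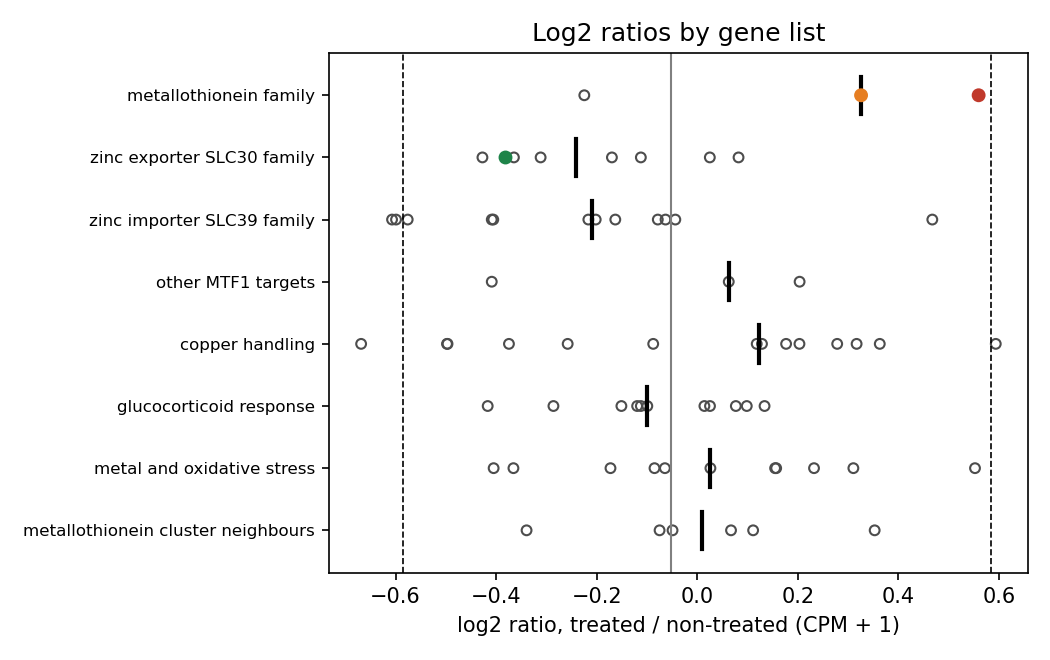
Log2 ratio (M2BPGi-treated over non-treated, CPM + 1) of each gene tested, by gene list. Filled points are MT2A (red), MT1X (orange) and SLC30A1 (green), black bars are list medians, the grey line is the median of all genes tested and dashed lines mark 1.5-fold. The medians of the SLC30 and SLC39 lists are -0.24 and -0.21.

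Whether genes with metal response element cores had a common direction was examined over all genes tested, but 72.0% of them were matched to a promoter, under the 80% required, so that comparison is void. Among protein-coding genes 82.0% were matched. This restriction was chosen after the first share was seen. There the median log2 ratio was -0.04 in 6080 genes without a core and -0.04 in 2211 genes with 1. It was -0.03 in 706 genes with 2 cores, -0.09 in 168 with 3 and -0.008 in 27 with 4, the number of MT1X. It was -0.23 in the 15 genes with 5 or more, of which 4 were higher and 11 lower, with MT2A the highest at 0.56. The medians had no steady order by number of cores, and the last 2 classes hold few genes. The classes also differed in the share of G and C bases in the promoter window. Its median was 63.6% in genes without a core and 75.2% in those with 5 or more. The part of base content in these medians was not tested.

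The genes nearest to MT2A in log2 ratio, among the 4216 genes of similar level and over 2 libraries, were INO80C, DTD2 and MCM8. INO80C was at 13.69 and 20.67 CPM (0.56), DTD2 at 12.65 and 19.1 CPM (0.56) and MCM8 at 9.11 and 13.92 CPM (0.56). INO80C and DTD2 each share both values with a further listed transcript. In all, 49 of the 4216 genes lay within 0.05 of the ratio of MT2A, so this likeness is not limited to the genes named.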

How the data were processed

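Tags of CAGE libraries from PLC/PRF/5 cells were analysed, 1 library from non-treated and 1 from M2BPGi-treated cells. The authors deposited 1 CPM value per gene and library, given to 2 decimals. The submitters' processing notes name BWA, HISAT2 and hg19, whereas the methods name a mouse genome; the gene identifiers are human. The assignment of tags to genes is not given in the sources used here.

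Numbers of tags were derived from the CPM steps with a tolerance of 0.005 CPM, taking the smallest value above 0 as 1 tag. On this reading 100% of the values above 0 were whole tags in both libraries. A stricter check of the low values, within 0.1 of 1 step (0.00416 CPM in non-treated, less than the rounding of 0.005 CPM), gave 87.6% for non-treated and 100% for M2BPGi-treated cells. It required 95% for a count test, so none was run, and the tag numbers served for counting intervals only. A count of 0 allows up to 3 tags, 0.125 CPM without and 0.121 CPM with M2BPGi.

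Log2 ratios used a pseudocount of 1 CPM, over genes whose mean CPM reached 1. Intervals were exact (Clopper-Pearson for ratios, Poisson for levels). The members and gene lists were chosen with earlier results of these data known. Lists were described by counts and medians. Named genes were the members, the listed metallothionein family, the 3 highest and 3 lowest of each other list whose mean CPM reached 10, any list gene at least 2-fold different, and the 3 genes nearest to MT2A in ratio among genes within 2-fold of its level; any further name was chosen with its value known. The value of 1 gene so selected is not reported here.

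Promoters were from RefSeq (GRCh38.p14) and transcripts from GENCODE 29 (GRCh38), neither the build of the deposited values. They were matched to the values by name or gene ID. They served for sequence, transcript length, gene positions, overlaps and start sites. Copies were searched with BLAST+ 2.17.0 (at least 95% identity over at least 100 nt). Calculations used Python 3.11.15, numpy 2.4.6, pandas 2.3.3 and scipy 1.17.1, and were tested on simulated data. A planned protein comparison was not run, since no protein table was used here.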

Additional observations from a re-analysis of the deposited data

How the results depend on the processing

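Each library is the only one of its condition, and no value without it was computed. No paired analysis was possible because the conditions were measured in 1 library each and were not tested. The planned edgeR exact test and TMM factors were not run, because the stricter check of whole tags gave 87.6% of low non-treated values where 95% was required, although 100% were whole within 0.005 CPM.

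The counts past 2-fold, 33 genes higher and 59 lower, depended on the settings. They were 53 and 162 with a pseudocount of 0.1 CPM, 18 and 21 with 5 CPM, 19 and 28 where the mean CPM had to reach 10, and 219 and 555 at 1.5-fold. Without a filter, after rescaling and with 1 entry per symbol they stayed within 1.5 times. The stress list median was 0.03, and -0.019 without a filter, which adds a low second entry for SRXN1. The other 39 list medians under alternatives kept their direction.

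Under the pseudocounts and rescaling, MT2A ranged from 0.41 to 0.61, MT1X from 0.26 to 0.35, MTF1 from -0.06 to -0.03 and SLC30A1 from -0.47 to -0.21. Rescaling removed a median of -0.03.

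Some alternatives were chosen after seeing the data. The MT1X stretches shared with other genes were 76 at first, then 7, 30 or 0 by transcript and by leaving out the overlapping gene. Promoter matching by symbol alone reached 64.6% of genes tested, and gene IDs were added after that share was seen. The median of genes with 5 or more cores was -0.24 over all matched genes and -0.23 over protein-coding genes.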
